A study of Mus musculus with 6 samples.

Results

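The genes described here encode parts of the contractile actin apparatus and of the intermediate filament network: Acta1, Acta2, Actg2, Tagln, Cnn1, Myl9, Tpm1, Tpm2 and Vim. They were chosen by symbol, with earlier results of these data known, and all 9 were found once among the 55401 genes of the count table. RNA was sequenced from V6.5 mouse embryonic stem cells, a line from hybrid mouse embryos. Wild-type cells (WT) were compared with cells of genotype Cdh1-/-, in which the gene of the adhesion protein E-cadherin is disrupted, with 3 libraries each, named A, B and C. The labels give no treatment, time point or culture condition, and all libraries were made from TRIzol-extracted total RNA with a directional kit. Neither do the labels say whether the Cdh1-/- cells came from 1 clone, or whether the replicates were separate cultures, so p-values measure the spread between these libraries, which may be technical.

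Actin filaments are pulled by myosin II. Muscle cells build them from dedicated actins (Acta1 in skeletal muscle, Acta2 and Actg2 in smooth muscle), while other cells rely on the cytoplasmic actins Actb and Actg1. Tropomyosins lie along the filament and set which myosins and severing proteins reach it. Calponin and transgelin bind the filament, and the light chain encoded by Myl9 switches myosin II on when it is phosphorylated. Many of these genes are known targets of serum response factor (SRF) and its actin-sensing coactivators, which bind the CArG box, a run of A and T between a pair of C and a pair of G. Vimentin, the product of Vim, forms intermediate filaments in mesenchymal cells and is widely read as a marker of epithelial-mesenchymal transition, a process in which E-cadherin is lost. At adherens junctions E-cadherin is tied to contractile actin through catenins.

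The libraries held between 18020719 and 23381942 counts. Levels are CPM, counts scaled to library size after TMM normalisation. A count of 6 or less in a library was treated as not distinguished from 0, which corresponds to at most 0.332 CPM. The targeted gene Cdh1 stood at 30.9% of its WT level in Cdh1-/- cells (log2 fold change -1.70, adjusted p 2.9e-08 in edgeR's quasi-likelihood test), with no overlap between the groups. Embryonic stem cell markers were abundant in every library, with a summed level of 4554 to 4910 CPM in WT and 5144 to 6207 CPM in Cdh1-/-. Their most abundant member, the Nodal co-receptor gene Tdgf1, rose (log2 fold change 0.63, adjusted p 0.000175 in the same test). Of the 8 listed markers, all tested, only this 1 had an adjusted p under 0.05. That is 12.5%, against 13.3% of all tested genes. Cdh1-/- replicate A stood apart on the second principal component, at 43.5 against -11.7 and -25.8 for replicates B and C. Some markers of differentiated cells were concentrated in replicate A of both genotypes. The cardiac troponin gene Tnnt2 had 95 counts in WT replicate A and 52 in Cdh1-/- replicate A, against at most 10 in any other library. The fibrillar collagen gene Col3a1 had 114 and 42 counts there, against at most 20 elsewhere. In both genotypes replicate A exceeded the others more than 2-fold for 4 of 14 striated muscle markers (Actc1, Myl2, Myl3 and Tnnt2) and 4 of 15 fibroblast markers (Col1a2, Col3a1, Dcn and Postn). The same was true of 1 of 11 endoderm markers, the serum protein gene Ttr, and of 0.121% of all tested genes. That last share covers tested genes only, whereas Actc1, Myl2, Dcn, Postn and Ttr were too low to test. A 2-fold excess arises more easily at such counts, so the shares are not alike. Postn, for example, had 8 and 10 counts in the A libraries and 0 elsewhere. Counts of called genes are therefore also given without both A libraries.

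Because SRF sites are the sequence feature most often tied to these genes, the promoters were searched for CArG boxes. RefSeq promoter windows (GRCm38.p6, 250 bases before to 50 bases after the annotated start) were matched for 7 of the 9 genes, all except Actg2 and Tagln. A perfect CArG box, searched on both strands, was present in 2 of these 7 windows, those of Acta1 and Myl9, and in 1.63% of all 32851 promoter windows. Boxes with exactly 1 C or G in the 6-base core were added to the search after the sequences were seen. They occurred in 3 of the 7 windows, those of Acta1, Acta2 and Myl9, and in 8.50% of all windows. The windows of Cnn1, Tpm1, Tpm2 and Vim held neither form. Each box is given on the strand of its gene with 10 bases on either side, and the capitals mark the box.
Acta2, chr19:34255438-34255467, minus strand, box at -84 to -75 from the start, 1 core mismatch: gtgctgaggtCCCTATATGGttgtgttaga
Acta2, chr19:34255388-34255417, minus strand, box at -34 to -25, 1 core mismatch: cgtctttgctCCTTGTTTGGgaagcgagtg
Myl9, chr2:156775293-156775322, plus strand, box at -161 to -152, no mismatch: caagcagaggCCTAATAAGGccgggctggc
Myl9, chr2:156775355-156775384, plus strand, box at -99 to -90, 1 core mismatch: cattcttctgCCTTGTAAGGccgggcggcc
Acta1, chr8:123894961-123894990, minus strand, box at -205 to -196, 1 core mismatch: gggatactctCCATATACGGcctggtccgg
Acta1, chr8:123894910-123894939, minus strand, box at -154 to -145, 1 core mismatch: ccagtcctctCCTTCTTTGGtcagtgcagg
Acta1, chr8:123894829-123894858, minus strand, box at -73 to -64, no mismatch: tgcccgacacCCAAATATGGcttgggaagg

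The pattern reads alike on both strands, so a box has no orientation. GENCODE M21 starts some Acta2 transcripts farther upstream, so both Acta2 boxes fall inside an annotated Acta2 exon there. Exons of the gene itself also cover all 250 bases before the start for Vim, 193 for Tpm1 and 106 for Tpm2. For Myl9 and Cnn1 they cover 44 and 37. The search of those windows therefore ran partly, and for Vim wholly, over annotated exon ahead of the start. The stretch of the Myl9 promoter ahead of any annotated exon is shown in full, since Myl9 carried a perfect box and was among the most lowered genes. It spans chr2:156775214-156775419 on the plus strand, with both boxes in capitals.
Myl9 promoter: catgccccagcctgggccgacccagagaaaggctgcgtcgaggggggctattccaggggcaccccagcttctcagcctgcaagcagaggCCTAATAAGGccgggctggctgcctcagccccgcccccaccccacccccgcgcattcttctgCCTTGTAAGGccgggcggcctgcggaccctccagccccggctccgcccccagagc

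Of other short motifs searched on both strands, CATTCC, the core that TEAD factors bind, was found in the windows of Acta1, Acta2 and Tpm1 and in 14.7% of all windows. TATAAA was found in those of Acta1 and Vim and in 13.6% of all windows. CTTTGAT, a core bound by TCF and LEF factors, was in 0 of the 7 windows and in 3.73% of all windows. None of these matches overlapped a CArG box. A match describes the letters only and shows no binding.

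Acta2, Myl9, Cnn1, Tpm1 and Vim were lower in cells without E-cadherin, from 9.85-fold for Acta2 to 1.39-fold for Vim, and none of the 9 genes was called higher. Counts sufficed to test 7 of the 9 genes. At a threshold of 0.05 on the adjusted p of edgeR's quasi-likelihood test, these 5 were called. Over all 17325 tested genes, 13.3% were called in either direction, 5.71% lower and 7.60% higher. Without both A libraries 3 of the 9 genes were called, Acta2, Myl9 and Tpm1, and 10.8% of all genes. Cnn1 and Vim then had adjusted p of 0.0724 and 0.0600 in edgeR's test. In both genotypes replicate A was highest for 3 of the 9 genes, Acta2, Cnn1 and Tagln, as it was for 13.0% of all tested genes. The part of other cell types in the A libraries was not tested. Acta1 and Tpm2 were tested and not called. Actg2 and Tagln had too few counts for a test. In 6 of the 7 tested genes every Cdh1-/- library lay under every WT library, a pattern held by 15.0% of all tested genes, and groups without overlap in either direction were held by 30.7%. The median log2 fold change of the 7 was -0.88, against -0.01 over all tested genes. The 9 genes were chosen with earlier results of these data known, so these comparisons describe them and are no test of the set. Acta2 passed the filter on low counts through its WT libraries, since only 1 of its Cdh1-/- libraries reached the minimum. None of the 9 genes lies on chromosome 1 or 14, whose median log2 fold changes were -0.33 and 0.53. The medians of chromosomes 2, 4, 6, 8, 9 and 19, which carry them, lay between -0.02 and 0.03.

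**Figure D1:**
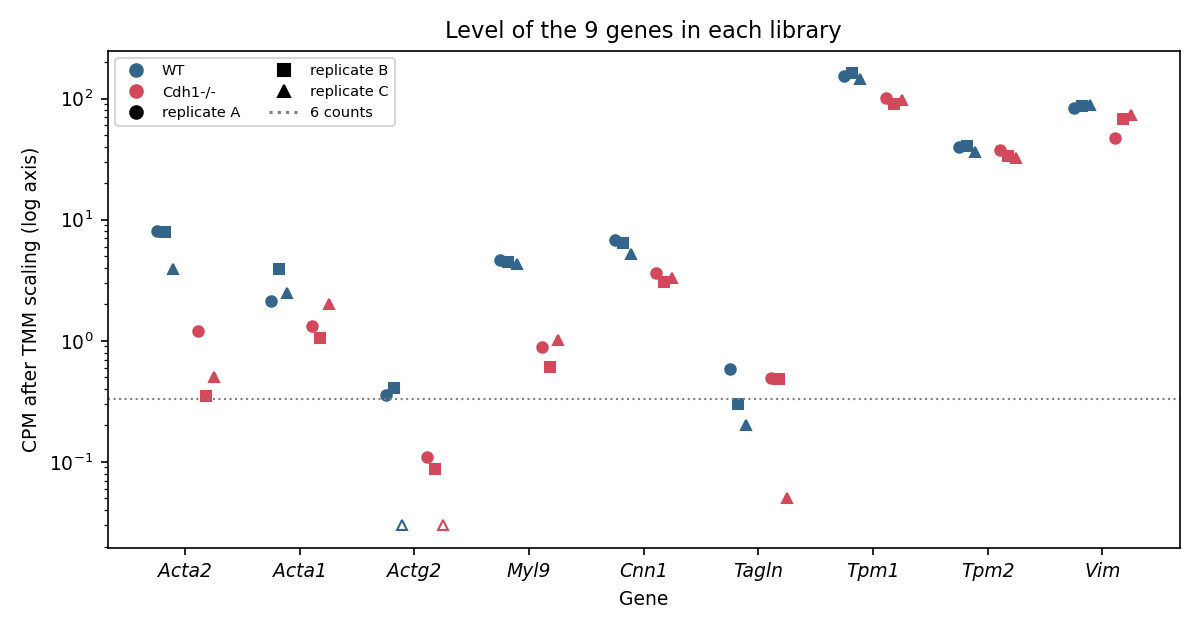
Level of each of the 9 genes in every library, in CPM after TMM scaling on a log axis, with WT in blue, Cdh1-/- in red and 1 symbol per replicate. Open symbols at the lower edge stand for 0 counts, and the dotted line marks 6 counts in the shallowest library. Acta2, Myl9, Cnn1, Tpm1, Vim and Acta1 separate by genotype, whereas Tpm2 and Tagln overlap.

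Acta2 (ENSMUSG00000035783.9, chromosome 19, 34241090 to 34255590, minus strand), the smooth muscle alpha-actin, was counted in WT replicate A at 8.10 CPM, in B at 7.98 CPM and in C at 3.90 CPM. In Cdh1-/- replicates A, B and C it was at 1.22 CPM, 0.349 CPM and 0.505 CPM, or 22, 8 and 10 counts. The WT libraries were all higher, WT replicate C least so, and the groups lay 2.69 CPM apart. Acta2 fell 9.85-fold (log2 fold change -3.30 with a standard error of 0.43, adjusted p 0.000127 in edgeR's test), the steepest change among the 9 genes. Its log2 fold change lay between -3.96 and -2.95 when each library was left out in turn, and the call held in all 6 of those fits. Without both A libraries it was -3.79 (adjusted p 5.1e-05 in edgeR's test).

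Acta1 (ENSMUSG00000031972.5, chromosome 8, 123891769 to 123894751, minus strand), the skeletal muscle alpha-actin, stood at 2.12 CPM, 3.94 CPM and 2.50 CPM in WT. Its Cdh1-/- libraries stood at 1.33 CPM, 1.05 CPM and 2.02 CPM. The groups did not overlap, but the gap between WT replicate A and Cdh1-/- replicate C was 0.0973 CPM. The log2 fold change of -0.96 (95% interval -1.75 to -0.17, unadjusted p 0.0209) missed the threshold (adjusted p 0.109 in edgeR's test). Actg2 (ENSMUSG00000059430.14, chromosome 6, 83512905 to 83536265), the smooth muscle gamma-actin, had 8, 8 and 0 counts in WT and 2, 2 and 0 counts in Cdh1-/-. At this depth no difference in Actg2 was detectable.

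Actin genes resemble each other, and reads can be lost or misplaced between copies. Of the 50-base windows in Acta1 transcripts, 2.02% also occur in transcripts of other genes, and for Acta2 the share was 0.326%. Windows of Actg2, Tagln, Cnn1, Myl9, Tpm1, Tpm2 and Vim were shared with no other gene. For the cytoplasmic actins the shares were 9.12% for Actb and 37.4% for Actg1, pseudogenes among them, so the counts of Actg1 carry more uncertainty.

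The cytoplasmic actins moved in opposite directions. Actb, beta-actin, was at 1663 CPM, 1500 CPM and 1648 CPM in WT and at 963 CPM, 1332 CPM and 1306 CPM in Cdh1-/-, a fall of 0.42 on the log2 scale (a log2 fold change of -0.42, adjusted p 0.0200 in edgeR's test). This call was lost without WT replicate A (adjusted p 0.0928) or WT replicate C (0.0705). It was lost as well without both A libraries (log2 fold change -0.26, adjusted p 0.0978). Actg1, gamma-actin, rose from 620 ± 32.1 CPM to 833 ± 23.5 CPM (SD, n = 3; log2 fold change 0.43, adjusted p 0.00199 in edgeR's test). Both directions were the same under the other scalings tried. Per kilobase of exon, Actb made up 72.4% ± 2.03 of the summed level of both genes in WT and 59.1% ± 4.90 in Cdh1-/- (SD, n = 3 each; exact two-sided permutation p = 0.10, the smallest p that 3 libraries against 3 allow). Their sum was 1153 ± 36.7 CPM per kb in WT and 1052 ± 99.99 CPM per kb in Cdh1-/- (SD, n = 3; exact two-sided permutation p = 0.20). Muscle actins, Actc1 of the heart included, made up between 0.308% and 0.639% of all actin signal per kb in WT and between 0.0854% and 0.202% in Cdh1-/-.

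Next came the genes that switch or brake the pull of myosin on actin. Myl9 (ENSMUSG00000067818.6, chromosome 2, 156775420 to 156781658, plus strand), a regulatory light chain of myosin II, was at 4.68 CPM, 4.45 CPM and 4.30 CPM in WT. Its level in Cdh1-/- replicates A, B and C was 0.884 CPM, 0.612 CPM and 1.01 CPM. The spread within each genotype was small beside the 3.29 CPM that separated the groups. Myl9 fell 5.37-fold (log2 fold change -2.42, standard error 0.32, adjusted p 0.000148 in edgeR's test), and the call held in all 6 fits that left out a library. Only Acta2 and Myl9 also passed a test against a fold of 1.5 (glmTreat), with adjusted p of 0.000988 and 0.00172. That test called 2.05% of all genes.

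Cnn1 (ENSMUSG00000001349.5, chromosome 9, 22099216 to 22109630, plus strand) encodes calponin 1, which inhibits the myosin ATPase on actin. It was counted at 6.84 CPM, 6.37 CPM and 5.20 CPM in WT and at 3.65 CPM, 3.06 CPM and 3.33 CPM in Cdh1-/-. The lowest WT library exceeded the highest Cdh1-/- library by 1.55 CPM. Its log2 fold change was -0.88 (standard error 0.23, adjusted p 0.0203 in edgeR's test). The call was lost without WT replicate A (adjusted p 0.101), WT replicate B (0.0765), Cdh1-/- replicate B (0.0796) or Cdh1-/- replicate C (0.0616).

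Tagln (ENSMUSG00000032085.5, chromosome 9, 45929619 to 45936058, minus strand), the gene of transgelin or SM22-alpha, was close to absent from the counts. WT replicates A, B and C had 13, 6 and 4 counts, and the Cdh1-/- replicates had 9, 11 and 1. The groups overlapped and no difference was detectable. Genes of the opposite strand, Pcsk7 and Gm48529, cover 61.8% of the exon bases of Tagln. Whether reads were counted by strand is not given in the sources used here, so these counts are uncertain.

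Of the tropomyosin genes, Tpm1 fell and Tpm2 was not called. Tpm1 (ENSMUSG00000032366.15, chromosome 9, 67022590 to 67049406, minus strand) was at 155 CPM, 162 CPM and 146 CPM in WT and at 102 CPM, 89.5 CPM and 97.7 CPM in Cdh1-/-. The groups were 44.5 CPM apart, more than the range within either. Its log2 fold change was -0.68 (standard error 0.09, adjusted p 0.000115 in edgeR's test), and the call held in all 6 fits without a library. Tpm2 (ENSMUSG00000028464.16, chromosome 4, 43514711 to 43523595, minus strand) was at 40.2 CPM, 40.7 CPM and 36.6 CPM in WT and at 37.5 CPM, 33.5 CPM and 32.1 CPM in Cdh1-/-, where replicate A overlapped WT. Its log2 fold change of -0.19 was not called (95% interval -0.42 to 0.05, adjusted p 0.299 in edgeR's test). The ubiquitous tropomyosins Tpm3 and Tpm4 had log2 fold changes of -0.03 and -0.03 and were not called.

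Shares of the tropomyosin genes were compared per length. Per kilobase of exon, Tpm1 held 16.1%, 16.5% and 15.0% of the summed tropomyosin level in WT, and 11.9%, 10.1% and 10.6% in Cdh1-/-. These shares did not overlap (exact two-sided permutation p = 0.10, the smallest possible here). The share of Tpm2 was 8.08% ± 0.472 in WT and 7.79% ± 0.948 in Cdh1-/- (SD, n = 3; exact permutation p = 0.70). Tpm3 was the leading gene in both genotypes, with 47.0% ± 2.32 in WT and 50.3% ± 5.34 in Cdh1-/- (SD, n = 3; exact permutation p = 0.50). GENCODE M21 lists 21 transcripts of Tpm1, and the counts are summed over all exons, so they do not show which muscle or non-muscle forms changed.

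**Figure D2:**
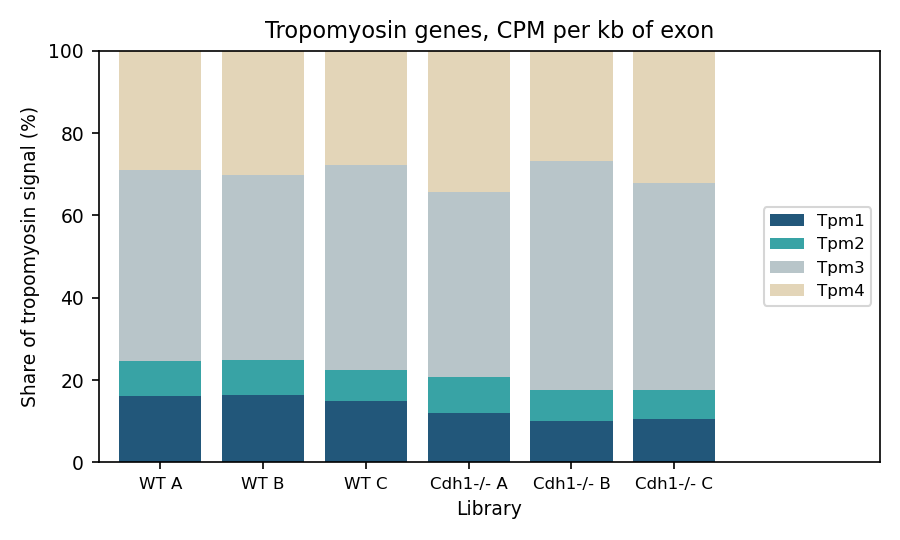
Share of each tropomyosin gene in the summed tropomyosin level of every library, in percent, from CPM per kilobase of exon. The Tpm1 segment is between 15.0% and 16.5% in WT and between 10.1% and 11.9% in Cdh1-/-.

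Vim (ENSMUSG00000026728.9, chromosome 2, 13573952 to 13582826, plus strand) was the most abundant of the 9 genes per kilobase. It stood at 84.0 CPM, 87.3 CPM and 89.0 CPM in WT and at 47.1 CPM, 67.4 CPM and 72.6 CPM in Cdh1-/-. All Cdh1-/- libraries were lower, replicate A by the widest margin. The log2 fold change was -0.48 (standard error 0.13, adjusted p 0.0249 in edgeR's test). It moved to -0.31 without Cdh1-/- replicate A, with an adjusted p of 0.0340. The call was lost without WT replicate A (adjusted p 0.0704), WT replicate B (0.0955), WT replicate C (0.0961) or Cdh1-/- replicate B (0.0582). At the RNA level, then, vimentin was not higher in cells lacking E-cadherin in any of the 17 alternative fits, whose log2 fold changes ran from -0.59 to -0.31.

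**Figure D3:**
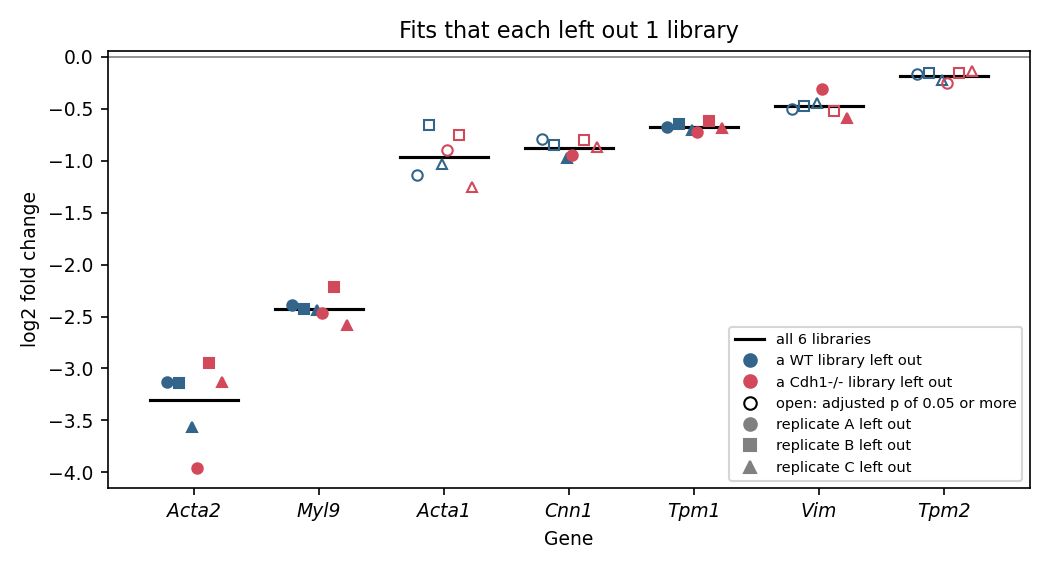
log2 fold change of the 7 tested genes with all 6 libraries (black lines) and with 1 library left out (symbols). Filled symbols have an adjusted p under 0.05. Acta2, Myl9 and Tpm1 stay called in every fit, Cnn1 and Vim in 2 of 6 each, and Acta1 and Tpm2 in 0.

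Levels per kilobase of exon set the genes against each other. In WT, Vim was at 39.6 ± 1.16 CPM per kb, Tpm1 at 32.3 ± 1.63, Tpm2 at 16.4 ± 0.938, Myl9 at 3.97 ± 0.170, Acta2 at 3.27 ± 1.18, Cnn1 at 2.43 ± 0.335 and Acta1 at 1.97 ± 0.665 (SD, n = 3 each). Tagln and Actg2 followed at 0.227 ± 0.125 and 0.187 ± 0.162 CPM per kb. The steps from Vim to Tpm1, Tpm2 and Myl9 exceeded the spread of the libraries, while Myl9, Acta2, Cnn1 and Acta1 each overlapped their neighbour. In Cdh1-/- the order at the top was the same, with Vim at 28.4 ± 6.14, Tpm1 at 20.1 ± 1.30 and Tpm2 at 14.4 ± 1.18 CPM per kb. Below them Cnn1, at 1.33 ± 0.117, came first, followed by Acta1 at 1.01 ± 0.345, Myl9 at 0.740 ± 0.180 and Acta2 at 0.339 ± 0.227 CPM per kb, and each of these overlapped the next.

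Single libraries stood low in several genes. Of the 7 tested genes, 5 were lowest among WT libraries in replicate C, and 5 were lowest among Cdh1-/- libraries in replicate B. Vim ran against this, with its highest WT level in replicate C and its lowest Cdh1-/- level in replicate A. These are counts of genes within 1 set of libraries and carry no test.

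Profile likeness was measured as the root mean square difference, over the 6 libraries, between the log2 CPM of 2 genes, each centred on its own mean, among 12848 genes whose mean reached 50 counts. Much of it reflects the genotype difference that both genes share. Nearest to Acta2 were Pax6 (0.437), Epp13 (0.444), Vgf (0.567), Smc1b (0.592) and Myl9 (0.669). Acta1, Actg2 and Tagln did not reach this mean. Among the others Myl9 came closest to Acta2, at rank 5, whereas Cnn1 ranked at 209 and Tpm1 at 373. For Tpm1 the nearest was Fn1, the gene of the matrix protein fibronectin, at 0.041, and the next were Cryzl2, Chml, Jph1 and Thnsl2, up to 0.056. Fn1 fell from 1793 ± 70.6 CPM to 1079 ± 77.3 CPM (SD, n = 3; log2 fold change -0.73, adjusted p 3.9e-05 in edgeR's test). Fn1 lies on chromosome 1, whose median was -0.33. Nearest to Vim were Rif1, Ctnnd2, Jarid2, Plch1 and Tulp4, from 0.067 to 0.081.

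Other proteins of the same families were examined as a list. Of 16 further actin, tropomyosin, calponin, transgelin, actinin and tropomodulin genes, 14 were tested, of which 3 fell and 2 rose. The share called was 35.7%, against 13.3% of all tested genes, and the median log2 fold change of the 14 was -0.07. Tagln3, a neuronal relative of transgelin, stood at 4.36 ± 0.670 CPM in WT and 1.38 ± 0.163 CPM in Cdh1-/- (SD, n = 3; log2 fold change -1.66, adjusted p 0.00147 in edgeR's test). Cnn2, a calponin of non-muscle cells, changed by -0.82 on the log2 scale (adjusted p 0.0177). It was not called without WT replicate A, WT replicate B, Cdh1-/- replicate B or Cdh1-/- replicate C (adjusted p from 0.0689 to 0.107), nor by DESeq2 (adjusted p 0.123). The more abundant relatives Cnn3 and Tagln2, at 400 CPM and 203 CPM in WT, had log2 fold changes of -0.12 and -0.03 and were not called. The fifth called gene of this list, Tmod3, a capper of actin filament ends, changed by 0.38 on the log2 scale (adjusted p 0.0449), and lost its call without WT replicate A or C and without Cdh1-/- replicate A or C (adjusted p from 0.0661 to 0.219). Its call was also lost with upper-quartile scaling (0.0653), with library totals alone (0.0659) and without both A libraries (0.289).

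**Figure D4:**
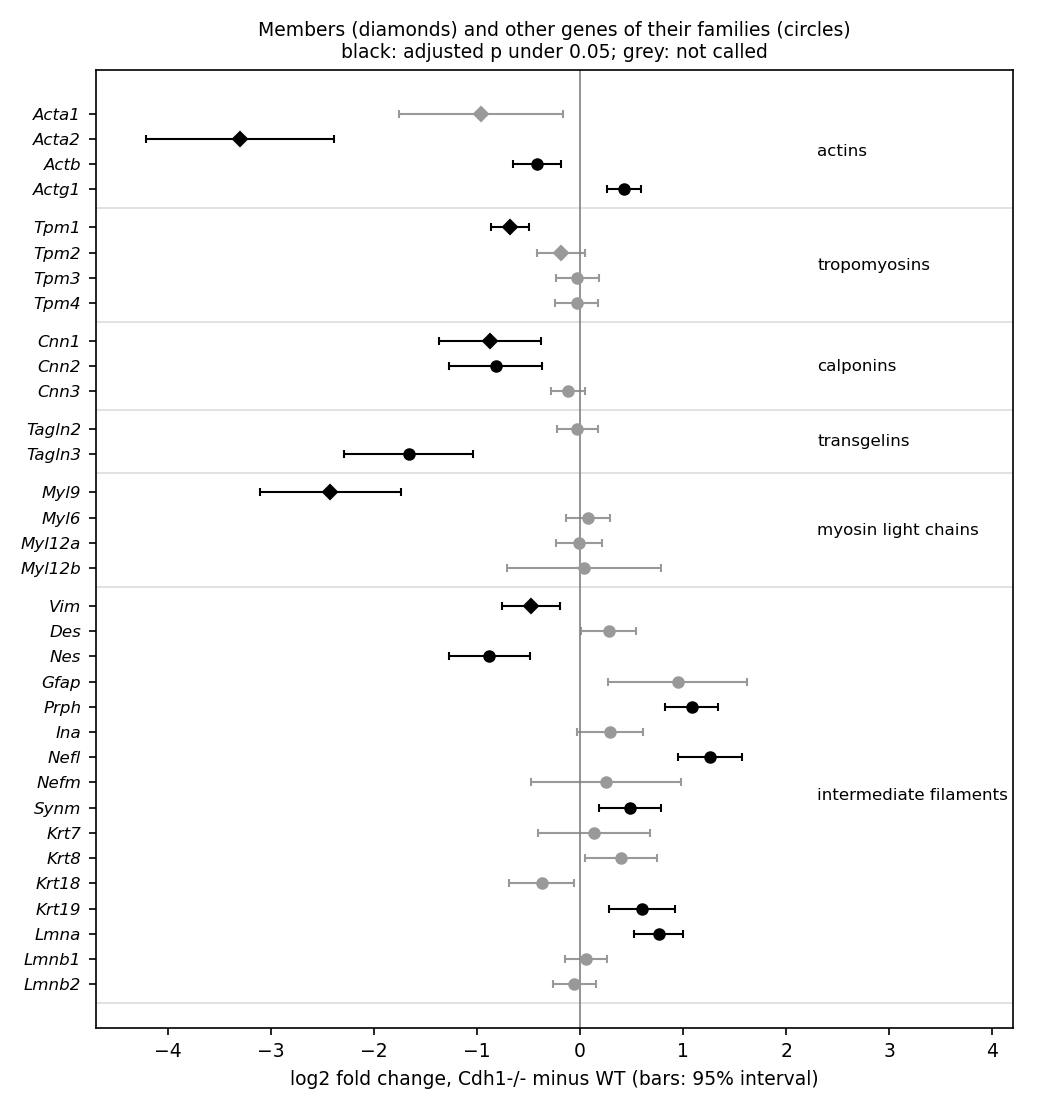
log2 fold change, Cdh1-/- minus WT, of the tested genes (diamonds) and of other tested genes of their families (circles), with 95% intervals from edgeR's fit. Black marks an adjusted p under 0.05. Acta2 at -3.30 and Myl9 at -2.42 are lowest, while Actg1, Prph, Nefl and Lmna lie above 0.

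Of 20 genes of non-muscle myosin II, the motor itself, and of its control, all tested, 2 were called, both higher, against 13.3% of all tested genes, with a median log2 fold change of 0.01. Myh9, the heavy chain and the most abundant of the list, was at 710 ± 4.72 CPM in WT and 689 ± 17.5 CPM in Cdh1-/- (SD, n = 3; log2 fold change -0.04, adjusted p 0.770 in edgeR's test). Myl6 and Myl12a, light chains of non-muscle cells, had log2 fold changes of 0.07 and -0.01 and were not called. For Myl12a 19.0% of exon bases are shared with an overlapping gene, which makes its counts uncertain. The called genes were the small GTPases Rhob and Rhoc. Rhob rose from 32.2 ± 3.22 CPM to 47.3 ± 7.24 CPM (SD, n = 3; log2 fold change 0.56, adjusted p 0.00896 in edgeR's test), and lost its call without WT replicate B (0.0632) or Cdh1-/- replicate C (0.0534). Rhoc changed by 0.32 on the log2 scale (adjusted p 0.0366) and was called in 1 of the 6 fits that left out a library, the one without Cdh1-/- replicate A. It was not called with upper-quartile scaling (0.0604) or library totals alone (0.0579).

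SRF and its coactivators were measured because of their known role at CArG boxes. Srf was at 37.4 ± 2.41 CPM in WT and 34.3 ± 2.16 CPM in Cdh1-/- (SD, n = 3; log2 fold change -0.12, adjusted p 0.514 in edgeR's test). The coactivator genes Mrtfa and Mrtfb had log2 fold changes of -0.13 and -0.07 and were not called, and Myocd, the coactivator of smooth muscle, was too low to test. Of the 22 listed genes of SRF, coactivators and targets, 21 were tested, of which 2 fell and 1 rose, with a median of -0.07. The share called was 14.3%, close to the 13.3% of all tested genes. Called lower were Fhl2 and Csrp1, LIM-domain proteins of the actin cytoskeleton, with log2 fold changes of -1.92 (adjusted p 0.0171) and -0.58 (adjusted p 0.00144). Both lie on chromosome 1, whose median was -0.33, and Fhl2 was called in 1 of 6 fits that left out a library, the one without Cdh1-/- replicate A. Fhl2 had 14, 6 and 6 counts in Cdh1-/-, at the floor in replicates B and C, so the size of its fall is uncertain. Itga5, the fibronectin receptor subunit, rose from 158 ± 15.9 CPM to 242 ± 9.64 CPM (SD, n = 3; log2 fold change 0.61, adjusted p 0.000398 in edgeR's test). Flna, the most abundant gene of this list, was not called, at a log2 fold change of -0.19 and an adjusted p of 0.234. The immediate early genes Egr1, Fos, Junb and Ier2 were not called.

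Other intermediate filament genes were called in both directions. Of 15 listed, all tested, 5 rose and 1 fell (40% called, against 13.3% of all tested genes), with a median log2 fold change of 0.29. The one that fell was Nes, the gene of nestin, which copolymerises with vimentin. It was at 58.2 CPM, 50.6 CPM and 32.2 CPM in WT and at 30.4 CPM, 24.9 CPM and 21.5 CPM in Cdh1-/- (log2 fold change -0.88, adjusted p 0.00505 in edgeR's test). The peripherin gene Prph rose from 32.1 ± 3.47 CPM to 68.1 ± 9.08 CPM (SD, n = 3; log2 fold change 1.08, adjusted p 3.7e-05 in edgeR's test). Nefl changed by 1.26 on the log2 scale (adjusted p 4.8e-05) and lies on chromosome 14, whose median was 0.53. The opposite-strand gene Nefm overlaps 32.8% of its exon bases, which makes its counts uncertain. The other neurofilament genes Nefm and Ina, at log2 fold changes of 0.25 and 0.29, were not called. Lmna, which encodes the lamins A and C of the nuclear envelope, rose from 40.2 ± 4.36 CPM to 68.1 ± 5.71 CPM (SD, n = 3; log2 fold change 0.76, adjusted p 0.000296 in edgeR's test). The remaining called genes were Krt19 (log2 fold change 0.60) and Synm (0.48). Krt19 lost its call without WT replicate C (adjusted p 0.0644). Synm lost it without WT replicate A or B and without Cdh1-/- replicate A or C (adjusted p from 0.0537 to 0.173).

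Contractile genes and Vim are also made by feeder fibroblasts, smooth muscle and other cells, so markers of those cells were read in the same libraries. In bulk RNA, fewer cells of a type and less RNA per cell cannot be told apart. Of 15 fibroblast markers, 8 were tested, of which 1 fell and 2 rose (37.5% called, against 13.3% of all tested genes). Their summed level was 62.5 to 73.6 CPM in WT and 78.5 to 98.7 CPM in Cdh1-/-, Fap was at 0 in every library, and 3 of the 15 were at or under 6 counts throughout. Col1a1 fell from 12.5 ± 3.27 CPM to 4.49 ± 1.28 CPM, while Fbn1 and Pdgfra rose, with log2 fold changes of -1.48, 1.25 and 1.49 (SD, n = 3; adjusted p 0.000912, 8.1e-05 and 0.000616 in edgeR's test). The higher sum in Cdh1-/- came mainly from Fbn1 (mean 15.2 CPM in WT, 36.4 CPM in Cdh1-/-) and Pdgfra (6.73 and 18.9 CPM). Pdgfra is also on the endoderm list. The sum therefore does not show a rise of fibroblast markers in general. Among tested markers without a call, Col1a2, Col3a1 and Thy1 changed by -0.82, -1.49 and -0.17 on the log2 scale. Loxl1 and Pdgfrb changed by 0.41 and 0.09. The part of such cells in the contractile genes was not tested.

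Of 8 smooth muscle markers, 6 were tested. Among these 1 was called (16.7%, against 13.3% of all tested genes). It was Myh11, the smooth muscle myosin heavy chain, at 1.31 ± 0.210 CPM in WT and 0.392 ± 0.196 CPM in Cdh1-/- (SD, n = 3; log2 fold change -1.73, adjusted p 0.0312 in edgeR's test). This call survived only the fit without Cdh1-/- replicate C among the 6 that left out a library. Myh11 had 4, 8 and 12 counts in Cdh1-/-, under the floor in replicate A, so the size of its fall is uncertain. The summed level of the list was 77.0 to 87.1 CPM in WT and 78.2 to 103 CPM in Cdh1-/-, most of it from Smtn and Des. None of its markers was at 0 in every library. Among 14 striated muscle markers 9 were tested and 0 were called (1 at an unadjusted p under 0.05), with summed levels of 39.4 to 67.1 CPM in WT and 43.8 to 55.6 CPM in Cdh1-/-, and none was at 0 throughout. In WT the striated muscle sum was highest in replicate A, at 67.1 CPM against 42.3 CPM in B and 39.4 CPM in C. In Cdh1-/- it was 46.2 CPM in A, 55.6 CPM in B and 43.8 CPM in C. There the sum did not show the excess in replicate A, although Tnnt2, Myl2, Myl3 and Actc1 were highest in the A libraries of both genotypes.

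Markers of endoderm moved with the genotype. All 9 tested markers of primitive and visceral endoderm, of 11 listed, rose in Cdh1-/-, Pdgfra among them, which is also on the fibroblast list, against 13.3% of all tested genes called. Of these Dab2, whose groups overlapped, was called in 1 of 6 fits that left out a library, the one without Cdh1-/- replicate A, and Foxa2, with 6, 6 and 4 counts in WT, in 2 of 6 (those without Cdh1-/- replicate A or B). The other 7 were called in all 6. Among them Gata4 (log2 fold change 1.70) lies on chromosome 14, whose median was 0.53. The listed markers Afp and Ttr were too low to test. Afp had 2 counts in WT replicate C and 0 elsewhere. In the 5 alternative fits that kept Ttr, its log2 fold change ran from -1.78 to -0.58, with 0 calls. The summed level of the endoderm list was 163 to 232 CPM in WT and 439 to 805 CPM in Cdh1-/-. Most of it came from the laminin gene Lama1, and none of the listed markers was at 0 throughout. Of 8 neural progenitor markers 6 were tested and 2 fell, Pax6 and Nes (33.3% called, against 13.3% of all tested genes). Pax6, an eye and forebrain regulator and the gene nearest to Acta2 in profile, was at 17.3 ± 3.82 CPM in WT and 1.98 ± 0.680 CPM in Cdh1-/- (SD, n = 3; log2 fold change -3.14, adjusted p 3.5e-06 in edgeR's test). The summed level of the neural list was 140 to 179 CPM in WT and 103 to 137 CPM in Cdh1-/-, with Fabp7 at 0 in every library. Their part in the lower levels of Vim and the contractile genes was not tested.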

How the data were processed

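Total RNA from 6 libraries was measured. The authors deposited raw gene counts without normalization. Per the submitters' processing notes, cutadapt 2.10, STAR 2.7.5b, featureCounts 2.0.1 and the build GRCm38 were used. The strand and multi-mapping settings are not given in the sources used here. Symbols were matched for 55141 of 55401 genes. Between 78.1% and 83.1% of counts from 1 to 10 were even, which can arise when both mates of a pair are counted, so the floor was 6 counts (3 pairs). It covers counting error only.

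Tests were run with edgeR 4.0.16 under R 4.3.3: filterByExpr by genotype (minimum count 10, total 15), TMM scaling, glmQLFit and glmQLFTest with genotype as the only term, and Benjamini-Hochberg adjustment over 17325 genes. Calls had an adjusted p under 0.05. Standard errors came from the F statistic, and 95% intervals from its degrees of freedom. CPM per kb divides CPM by deposited exon length. Myl12b has a pair of rows, of which the one with counts was used. The fit was tested on simulated data.

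Members and lists were chosen with earlier results of these data known. Named were all members, up to 4 called genes and the most abundant gene of each list, up to 3 called markers with the most abundant one, and the 5 nearest profiles. Genes beyond this rule were named after their values were seen. Alternatives used limma 3.58.1 and DESeq2 1.42.0, other scalings and filters, halved counts, a replicate block, each library left out and, added later, both A libraries left out. For 1 called gene of the lists no values are reported here.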

Additional observations from a re-analysis of the deposited data

How the results depend on the processing

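Over 17 alternative fits the 7 tested genes kept a log2 fold change under 0. RLE, upper-quartile and library-total scaling, both other filters, halved counts, DESeq2 and limma-voom each called the same 5 genes. The test against a fold of 1.5 (glmTreat) called 2 of them and 355 genes in all, by its own construction. Leaving out each library in turn called between 3 and 5 of the 9 genes (3 without WT replicate A, WT replicate B or Cdh1-/- replicate B) and between 1374 and 2784 of all genes, fewest without WT replicate A and most without Cdh1-/- replicate A, and such fits have fewer samples. A fit without both A libraries, chosen after the data were seen, called 3 of the 9 genes and 1883 of all genes, with Cnn1 at -0.86 and Vim at -0.33. It called 3 genes among other actins and their binding proteins, 4 of the SRF list and 5 of the intermediate filament list. Of TGF-beta signalling it called 5 genes, and of non-muscle myosin II 2. This fit lost the calls of Synm, Myh11, Foxa2 and Tgfb2 (adjusted p 0.224, 0.192, 0.0997 and 0.0785). Called genes among other actins and their binding proteins went from 5 to 2 without WT replicate A, and to 3 without WT replicate C or Cdh1-/- replicate C. Those of TGF-beta signalling went from 5 to 3 without WT replicate A. Those of non-muscle myosin II went from 2 to 0 without WT replicate B or Cdh1-/- replicate C, to 4 without Cdh1-/- replicate A, and to 1 without any other library or with upper-quartile or library-total scaling. Those of the SRF list went from 3 to 5 without Cdh1-/- replicate A. glmTreat called 1 of the first list, 1 of TGF-beta signalling, 0 of myosin II, 0 of the SRF list and, of 6 intermediate filament genes, 2. With the replicate letter as a replicate block, 5 of the 9 genes and 2686 of all genes were called. Libraries of the same letter correlated in their deviations at 0.145 (A), -0.026 (B) and 0.233 (C). Between libraries of different letters the correlations ran from -0.245 to 0.119. The A and C values lay above all of these, and the B value did not. Both A libraries also share an excess of some markers. The main fit left the letters out, and a pairing by letter was not tested further. With the block, Vim had an adjusted p of 0.00595 in edgeR's test. Without any filter, Actg2 (log2 fold change -1.83, adjusted p 0.561) and Tagln (-0.06, adjusted p 0.996) were not called by edgeR. Depth limits these 2 genes.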

Other observations

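Genes of TGF-beta signalling, a pathway known to induce Acta2 and other contractile genes in many cells, moved in both directions. Of 16 listed, all tested, 3 fell and 2 rose (31.2% called, against 13.3% of all tested genes), with a median log2 fold change of 0.09. The ligand gene Tgfb2 fell from 2.85 ± 1.37 CPM to 0.468 ± 0.469 CPM (SD, n = 3; log2 fold change -2.60, adjusted p 0.00697 in edgeR's test). It lies on chromosome 1, whose median was -0.33, and it lost its call without WT replicate A (adjusted p 0.0664). Its Cdh1-/- level was near the floor of at most 0.332 CPM, with an SD as large as the mean. Over the 17 alternative fits its log2 fold change ran from -3.82 to -1.82, so the size of its fall is uncertain. The receptor gene Tgfbr2 rose from 2.02 ± 0.516 CPM to 5.30 ± 1.21 CPM (SD, n = 3; log2 fold change 1.39, adjusted p 0.00509 in edgeR's test). Tgfbr3, the co-receptor betaglycan, changed by 1.003 on the log2 scale (adjusted p 0.00884), and lost its call without WT replicate A (0.0544) or Cdh1-/- replicate C (0.0555). Tgfbi, a target of the pathway, changed by -0.80 on the log2 scale (adjusted p 0.00973), and lost its call without WT replicate B (0.0657). The most abundant gene of the list, the SMAD corepressor Skil, missed the threshold with a log2 fold change of -0.08 and an adjusted p of 0.644.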
